A study of Mus musculus with 6 samples.

Results

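The TNF receptor family was read here through 9 of its members in B1a cells sorted from the peritoneal cavity (PC) of *p40-/-IL-2Rα-/-* mice, which lack the α chain of the IL-2 receptor. The members are GITR (*Tnfrsf18*), OX40 (*Tnfrsf4*), 4-1BB (*Tnfrsf9*), CD27 (*Cd27*), HVEM (*Tnfrsf14*), TNFR1 (*Tnfrsf1a*), TNFR2 (*Tnfrsf1b*), Fas (*Fas*) and the lymphotoxin beta receptor (*Ltbr*). Every non-control probe that the array files assign to these gene names was taken, which gave 13 probes in 23 spots, out of 55681 probes for 36163 gene names in 59305 spots. In *p40-/-IL-2Rα-/-* mice (called knockout below), *Il12b*, the gene of the p40 subunit of IL-12 and IL-23, and *Il2ra*, the gene of CD25, are both deleted, and the mice develop autoimmune cholangitis. The control, *p40-/-IL-2Rα+/-*, also lacks p40 and keeps 1 intact copy of *Il2ra*, so that no mouse with p40 was on the arrays. All mice were 7-week-old females on C57Bl/6, and both deletions are carried in the germline rather than in B cells alone. B1a cells were sorted by flow cytometry, and total RNA of 3 samples of each genotype was hybridized to 1 Agilent array per sample. Each sample held cells of at least 3 mice, so the spread between arrays is that between pools, and p-values measure only the spread between these samples.

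Receptors of this family bind trimeric ligands of the TNF family and signal through adaptor proteins. GITR, OX40, 4-1BB, CD27, HVEM, TNFR2 and the lymphotoxin beta receptor recruit TRAF proteins and lead to NF-kB, whereas TNFR1 and Fas also carry a death domain that can start apoptosis. GITR is best known from regulatory and activated T cells, and is also present on B1a cells, the CD5+ B cells of the body cavities that renew themselves and make natural antibody.

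A reading on these arrays is that of a 60-base probe, so the probes are shown before the values. The last 30 bases of each are written 5′ to 3′ in the sense of the transcript, from the array files. The 1 long run of alternating G and T, of 22 bases in probe 1 of *Tnfrsf9*, is in capitals. *Tnfrsf18* and *Tnfrsf4* are shown because they are neighbours on chromosome 4 whose differences between the genotypes had opposite signs, *Tnfrsf9* because only 1 of its probes gave a signal on every array, *Tnfrsf1a* because both of its probes could be tested, and *Cd27* because neither could.
Tnfrsf18, chr4:155402941-155403000 (mm9, plus strand): cttgtacaagaataaatacttgtctagtaa
Tnfrsf4, chr4:155390639-155390698 (mm9, plus strand): tgcctggtggtgctcctaataaacatgcta
Tnfrsf9 probe 1, chr4:150319582-150319641 (mm9, plus strand): taaaatcaGTGTGTGTGTGTGTGTGTGTGT
Tnfrsf9 probe 2, chr4:150319101-150319160 (mm9, plus strand): taacatatttgtctttaccttttttaaatc
Tnfrsf1a probe 1, chr6:125312376-125312435 (mm9, plus strand): atggatgaactgtgtaaggtaaggacaagc
Tnfrsf1a probe 2, chr6:125311922-125311981 (mm9, plus strand): gaatatcctcgaggctctgagaaatcccgc
Cd27 probe 1, chr6:125183076-125183135 (mm9, minus strand): agctgacaaaactacatgccaggggtggaa
Cd27 probe 2, chr6:125183200-125183259 (mm9, minus strand): atactcaacaaactgcccttctgagaccaa
The remaining probes lie at chr4:154296319-154296378 (*Tnfrsf14* probe 1) and chr4:154300709-154300768 (*Tnfrsf14* probe 2), both on the minus strand. *Tnfrsf1b* was read at chr4:144802359-144802418 and *Ltbr* at chr6:125256614-125256673, both on the minus strand, and *Fas* at chr19:34402164-34402223 on the plus strand. Whether a probe lies in an exon, an intron or a UTR was not checked, since no mm9 annotation was used here. The starts of the *Tnfrsf4* and *Tnfrsf18* probes are 12302 bases apart.

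All values below are log2 signals relative to the 75th percentile of the array, and because probes bind with different strength they are compared between arrays and never between probes. That percentile was 264, 252 and 272 intensity units on control 1, 2 and 3, and only 131, 66.5 and 162 on knockout 1, 2 and 3. The share of spots well above background was 47.2% to 50.6% in control and 39.7% to 45.9% in knockout samples. A probe at background therefore reads higher relative to the percentile on a knockout array. The lowest value well above background lay between -4.48 and -3.98 in control samples and between -3.67 and -2.41 in knockout samples. *Il2ra* read 1.62, 1.13 and 1.35 in control samples and -0.31, -0.59 and 0.86 in knockout samples (limma adjusted p = 0.122), and its probe stayed well above background on all 6, as did that of *Il12b*. The log2 difference of *Il2ra* was -1.82 without knockout 3 (limma adjusted p = 0.0382), and *Il2ra* also passed with array weights (limma adjusted p = 0.0429) and with normexp and the 75th percentile (0.00513). Over all genes, 112, 1493 and 6444 passed the adjusted p in these 3 settings. Where the probes of *Il2ra* and *Il12b* lie relative to the deleted parts was not checked.

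Of the 9 members, 7 could be tested, each by a probe well above background on all 3 arrays of 1 genotype or of both. None of the 7 passed an adjusted p of 0.05 over the 18254 genes tested with limma, where 0.0383% of all genes did. None passed the 2-fold thresholds, at least 2-fold with an unadjusted p no higher than 0.05, which 3.53% of all genes passed (2.26% higher and 1.27% lower). Unadjusted limma p-values under 0.05 were found for 2 members, *Tnfrsf18* and *Tnfrsf1a*, both lower in knockout B1a cells, against 25.1% of all genes in either direction, 13.6% lower and 11.6% higher. The median log2 difference of the 7 members was -0.18, and that of all tested genes was -0.12. The 3 knockout arrays lay all below the control arrays for 2 members, where 21.6% of all genes did, and all above them for 1 member, where 14.7% did (36.3% in either direction).

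**Figure D1:**
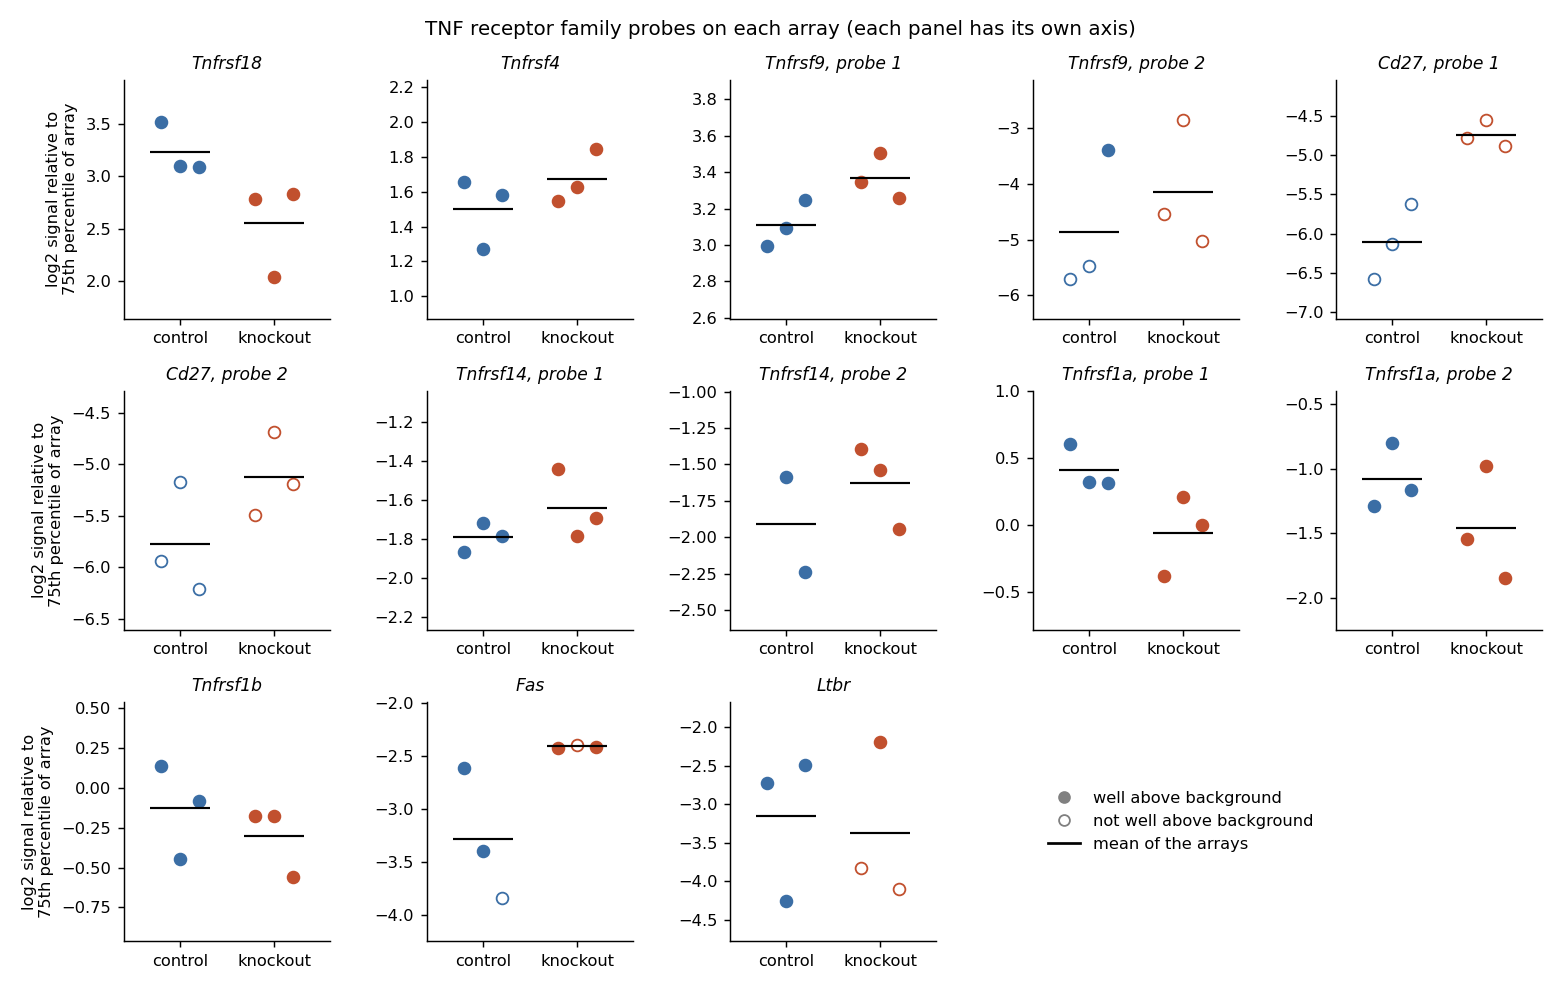
Log2 signal of each of the 13 probes on the 3 control and the 3 knockout arrays (vertical axis, relative to the 75th percentile of the array, with an axis of its own in each panel). Filled points are well above background, open points are not, and bars are means; probe 2 of Tnfrsf14 has no value on control 1, whose spot was marked an outlier. The knockout arrays lie below the control arrays for Tnfrsf18 and for probe 1 of Tnfrsf1a.

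GITR had the lowest log2 difference among the tested members. *Tnfrsf18* read 3.52, 3.09 and 3.09 on control 1, 2 and 3, and 2.79, 2.04 and 2.83 on knockout 1, 2 and 3. All 3 knockout values lay under the lowest control value, and knockout 2, the dimmest array, was the lowest of them. The group means were 3.24 ± 0.25 (SD, n = 3) in control and 2.55 ± 0.44 (SD, n = 3) in knockout samples. The log2 difference was -0.68 (standard error 0.25, 95% confidence interval -1.27 to -0.09), or 1.60-fold lower. With limma this gave an unadjusted p of 0.0295 and an adjusted p of 0.166, so the difference did not pass the threshold. Without knockout 2 the log2 difference of *Tnfrsf18* was -0.43. With normexp background correction in place of the processed signal, and the 75th percentile, it was -0.92 (limma adjusted p = 0.0128). That was the 1 setting in which it passed, and 6444 of 18254 genes passed there. With normexp and quantile normalization it was -0.48 (limma adjusted p = 0.237). The difference of *Tnfrsf18* was negative in each of 19 alternative settings, from -0.92 to -0.43. Leaving out 1 array could not turn the sign, since the groups did not overlap. Several other settings left the value at -0.68.

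Before any scaling the *Tnfrsf18* probe gave 3026, 2155 and 2317 intensity units in control samples and 903, 274 and 1152 in knockout samples. Part of that gap is the gap between the arrays as wholes, which the 75th percentile removes. The genes whose pattern over the 6 arrays was most like that of *Tnfrsf18*, by the root mean square difference of the centred log2 values, were *Jakmip1* (0.0812), *Kcnj1* (0.0833), *Cep70* (0.0878), *Ddah2* (0.0886) and *Cmtm6* (0.0923), out of 9746 genes with a symbol that were well above background on all 6 arrays. Among the other tested members the same measure was 0.42 for *Tnfrsf1a*, the most like, and up to 0.61, for *Tnfrsf9*, among those well above background on all 6 arrays. GITR's ligand, *Tnfsf18*, read -0.69, -1.43 and -1.30 in control samples and -0.86, -2.15 and -1.89 in knockout samples, with overlapping groups (log2 difference -0.49, limma adjusted p = 0.388). That difference of *Tnfsf18* was -0.88 without knockout 1, -0.24 without knockout 2, -0.27 without control 1 and -0.07 with array weights.

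OX40, a costimulatory receptor of activated T cells encoded next to GITR, had a difference of the opposite sign that did not pass the test. *Tnfrsf4* read 1.65, 1.27 and 1.58 in control samples and 1.55, 1.62 and 1.84 in knockout samples. The groups overlapped, and the log2 difference was 0.17 (standard error 0.17, 95% confidence interval -0.22 to 0.56, limma adjusted p = 0.505). Without control 2 the log2 difference of *Tnfrsf4* was 0.05, and without knockout 3 it was 0.08. The difference between the changes of the neighbouring genes was not tested.

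4-1BB, a costimulatory receptor of activated T and NK cells, was well above background on every array by only 1 of its 2 probes. Probe 1 of *Tnfrsf9* read 3.00, 3.09 and 3.25 in control samples and 3.35, 3.51 and 3.26 in knockout samples. The knockout values lay all above the control values, with a gap of 0.01 between the groups, and the log2 difference was 0.26 (standard error 0.15, 95% confidence interval -0.09 to 0.60, limma adjusted p = 0.286). Probe 2, whose start is 481 bases nearer to the start of the transcript, was well above background on 1 control array and on no knockout array. It read -5.70, -5.47 and -3.39 in control samples and -4.55, -2.84 and -5.03 in knockout samples, and was not tested.

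The signal of *Tnfrsf9* thus came from a probe whose last 22 bases, positions 39 to 60, alternate G and T. After both probes had been read, all probes of the array were searched for such repeats on the probe strand. A run of at least 16 bases, GTGTGTGTGTGTGTGT or the same run starting with T, was held by 75 probes for 75 genes (0.135% of all probes). All 75 (100%) were well above background on all 6 arrays, against 37.1% of all probes. Of the 75, 74 were higher in knockout samples, with a median log2 difference of 0.24 and quartiles of 0.20 and 0.26, where the median of all tested probes was -0.09. Probe 1 of *Tnfrsf9*, at 0.26, lay within the range of these probes, which ran from -0.03 to 0.44. The other probes of the same genes, 57 probes for 39 genes, were well above background on all 6 arrays in 30 cases (52.6%) and on no array in 22, and the 33 of them that were tested had a median log2 difference of 0.03.

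The reverse complement behaved in the same way with a larger difference. A run of at least 16 bases of ACACACACACACACAC, or the same run starting with C, was held by 35 probes, none of which held the first repeat. Of these 35 probes 97.1% were well above background on all 6 arrays, and the 34 that were tested were all higher in knockout samples, with a median log2 difference of 0.92. As the required run grew from 8 to 18 bases, the share of probes above background on all 6 arrays went from 57.9% to 100% for the first repeat and from 42.2% to 100% for the reverse complement. The part of the repeat in the reading of *Tnfrsf9* was not tested, and these data hold no reading of 4-1BB well above background on every array from a probe without it.

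**Figure D2:**
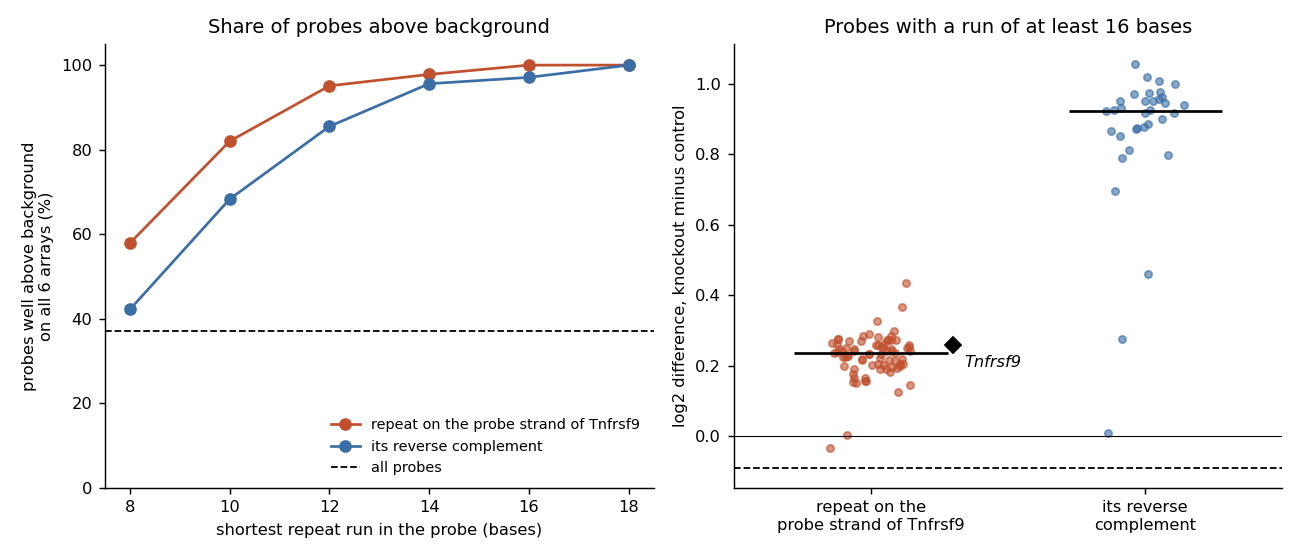
Left, share of probes well above background on all 6 arrays (per cent) against the shortest alternating run that a probe had to hold (bases), for the repeat found in probe 1 of Tnfrsf9 and for its reverse complement, with all probes as the dashed line at 37.1%. Right, log2 difference (knockout minus control) of each tested probe with a run of at least 16 bases; solid bars are medians (0.24 and 0.92), the dashed line is the median of all probes, and the diamond repeats the point of Tnfrsf9.

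CD27, the receptor for CD70 found on T cells and on memory B cells, was not detectable at the signal of these arrays. Neither probe of *Cd27* was well above background on any of the 6 arrays, so no fold is given. Probe 1 read -6.58, -6.13 and -5.62 in control samples and -4.78, -4.55 and -4.88 in knockout samples. Probe 2 read -5.94, -5.17 and -6.21 in control samples and -5.49, -4.69 and -5.19 in knockout samples. Each of these values lies under the lowest value well above background of its own array, and without a filter on dim probes the median log2 difference of all 36163 genes was 0.40.

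HVEM, which binds LIGHT, lymphotoxin alpha and the inhibitory receptor BTLA, did not pass the test, and its groups overlapped. Probe 1 of *Tnfrsf14* read -1.86, -1.72 and -1.78 in control samples and -1.44, -1.78 and -1.69 in knockout samples. The value of knockout 2 lay within the control values, and the log2 difference was 0.15 (standard error 0.15, 95% confidence interval -0.20 to 0.50, limma adjusted p = 0.512). Without knockout 1 the log2 difference of *Tnfrsf14* was 0.05, and without knockout 3 it was 0.44, where probe 2 had the higher mean and stood for the gene. Probe 2, which starts 559 bases nearer to the start of the transcript, read -1.59 and -2.24 on control 2 and 3, and -1.40, -1.54 and -1.94 on the knockout arrays. Its spot on control 1 was marked an outlier by the scanner software and was left out, so that 2 control values entered the fit (log2 difference 0.29, limma adjusted p over 24753 probes = 0.506).

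The sign of *Tnfrsf14* turned where that 1 spot was kept. It had an intensity of 3952 and a log2 value of 3.91, far above the 5 other arrays of the same probe. With outlier spots kept, probe 2 became the brighter probe and stood for the gene, and the log2 difference was -1.65 (limma adjusted p = 0.467). With the deposited log2 values it was -1.77 (limma adjusted p = 0.511).

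TNFR1, the death domain receptor for TNF found on most cells, read lower on average in knockout samples by both probes, without passing the adjusted p. Probe 1 of *Tnfrsf1a*, printed in 10 spots on each array, read 0.60, 0.32 and 0.31 in control samples and -0.38, 0.21 and 0.00 in knockout samples. All knockout values lay under the control values. The log2 difference was -0.47 (standard error 0.19, 95% confidence interval -0.92 to -0.02), or 1.38-fold lower, with an unadjusted limma p of 0.0443 and an adjusted p of 0.192. The SD over the 10 spots within an array was between 0.0488 and 0.135, and that between arrays was 0.17 in control and 0.30 in knockout samples, so the spots of 1 array differed less than the arrays of 1 genotype. Probe 2, starting 454 bases nearer to the start of the transcript, read -1.28, -0.80 and -1.16 in control samples and -1.54, -0.98 and -1.85 in knockout samples, with overlapping groups (log2 difference -0.37, limma adjusted p over 24753 probes = 0.361). The log2 difference of *Tnfrsf1a* was negative in each of 19 alternative settings, from -0.60 to -0.31, the latter without knockout 1, with limma adjusted p-values from 0.0621 to 0.395. Leaving out 1 array could not turn this sign, since the groups of probe 1 did not overlap. Several other settings left the value at -0.47.

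TNFR2, the TNF receptor without a death domain, did not differ beyond the spread between arrays. *Tnfrsf1b* read 0.14, -0.45 and -0.08 in control samples and -0.18, -0.18 and -0.56 in knockout samples. The groups overlapped (log2 difference -0.18, standard error 0.20, 95% confidence interval -0.65 to 0.30, limma adjusted p = 0.572). The log2 difference of *Tnfrsf1b* was -0.04 without control 1, -0.05 without knockout 3 and -0.33 without control 2.

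Fas, the death receptor for Fas ligand, was at the limit of detection. Its probe read -2.62, -3.40 and -3.84 in control samples and -2.42, -2.39 and -2.42 in knockout samples. It was well above background on 2 control arrays, without control 3, and on 2 knockout arrays, without knockout 2, so *Fas* was not tested. The knockout values lay all above the control values, and the means differed by 0.87. On the arrays of control 3 and knockout 2, 1 of its 2 spots was well above background. Where such arrays were counted as above background, a choice made after seeing the data, the log2 difference of 0.87 had a limma adjusted p of 0.149.

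The lymphotoxin beta receptor, which is used mostly by stromal and myeloid cells, was also near background. *Ltbr* read -2.73, -4.26 and -2.49 on the control arrays, all well above background, and -3.82, -2.19 and -4.10 on the knockout arrays, where only the value of knockout 2 was well above background. The groups overlapped, and the log2 difference of -0.21 had a standard error of 0.62 and a 95% confidence interval from -1.66 to 1.24 (limma adjusted p = 0.834). Its sign changed when any of control 1, control 3, knockout 1 or knockout 3 was left out, with values from -0.80 to 0.15 over the 6 arrays left out in turn.

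**Figure D3:**
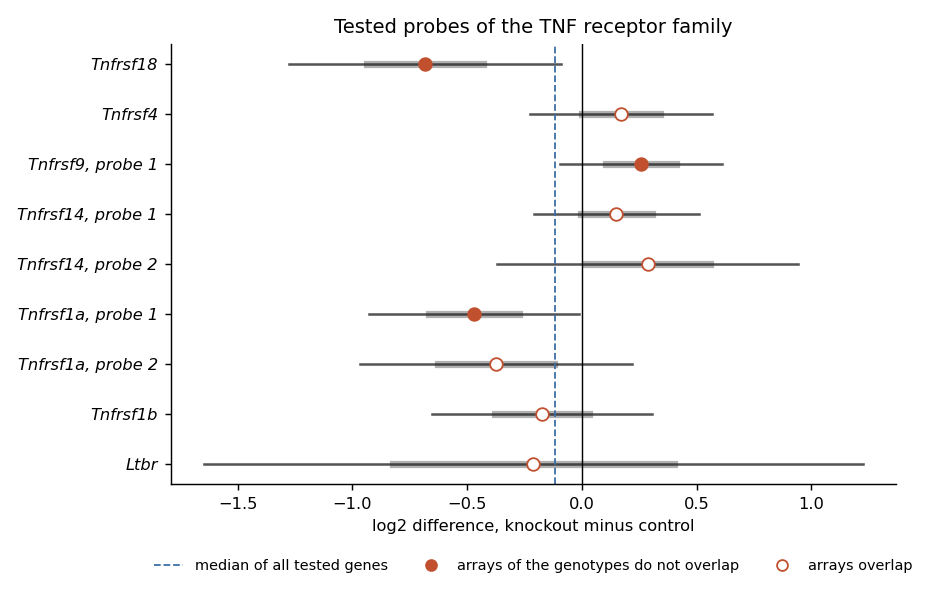
Log2 difference (knockout minus control, horizontal axis) of the 9 tested probes in a fit over 24753 probes. Thin lines are 95% confidence intervals, thick lines are 1 standard error, and filled points mark probes whose control and knockout arrays do not overlap. The interval leaves out 0 for Tnfrsf18 and, narrowly, for probe 1 of Tnfrsf1a, and is widest for Ltbr.

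**Figure D4:**
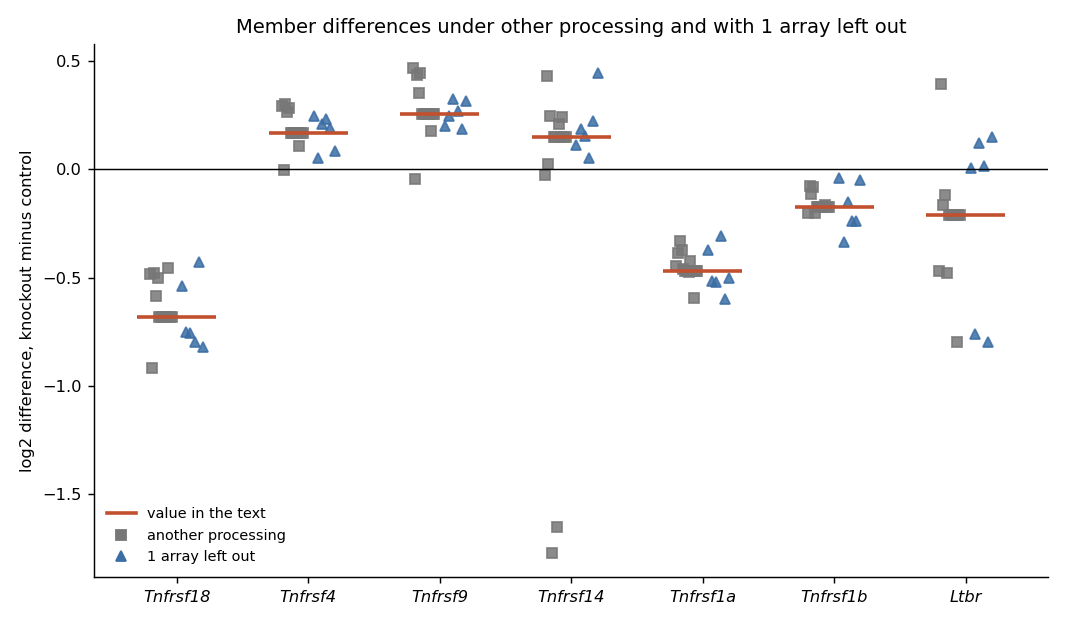
Log2 difference (knockout minus control, vertical axis) of the 7 tested members as given in the text (bar), under other processing (squares) and with 1 array left out (triangles). Tnfrsf18, Tnfrsf1a and Tnfrsf1b lie below 0 throughout, while Ltbr falls on both sides and Tnfrsf14 drops to -1.65 and -1.77 where the outlier spot of control 1 or the deposited values are used.

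The ligands of these receptors and the HVEM partners BTLA and CD160 formed a list of 11 genes, of which 6 could be tested. None passed the adjusted p, and 1 of the 6 passed the 2-fold thresholds, higher in knockout samples, where 2.26% of all genes did. *Lta*, which encodes lymphotoxin alpha, read -0.39, -1.55 and -0.78 in control samples and 0.49, 0.02 and -0.16 in knockout samples. Its groups did not overlap, and it rose 2.03-fold at the 2-fold thresholds (log2 difference 1.02, standard error 0.32), although its limma adjusted p was 0.136. *Lta* passed the limma adjusted p with normexp and the 75th percentile (0.0178), where 6444 of 18254 genes did. It missed 2-fold without control 2 (log2 difference 0.70), without knockout 1 (0.83), after quantile normalization (0.98), with the deposited log2 values (0.98) and with normexp (0.75 and, with quantile normalization, 0.66). *Tnf* read -1.99, -1.99 and -1.30 in control samples and -1.10, -0.11 and -1.29 in knockout samples, with groups that did not overlap by a gap of 0.01 (log2 difference 0.93, limma adjusted p = 0.168). The log2 difference of *Tnf* was 0.57 without knockout 2, 0.55 with array weights and 0.45 with normexp and quantile normalization (limma adjusted p = 0.247). *Tnf* passed the limma adjusted p with normexp and the 75th percentile (0.0231), where 6444 of 18254 genes did. *Ltb*, the partner of lymphotoxin alpha in the membrane-bound ligand, had a log2 difference of 0.38 (limma adjusted p = 0.337), which was 0.23 without control 2 and 0.17 without knockout 1, and the 4-1BB ligand gene *Tnfsf9* one of -0.39 (limma adjusted p = 0.409), which was -0.22 without control 3 and -0.07 without knockout 1. *Btla* had a log2 difference of 0.26 (limma adjusted p = 0.435), which was 0.15 without control 3 and 0.07 without knockout 1, and *Tnfsf14*, the gene of LIGHT, and *Cd160* were well above background on no array. The median log2 difference of the 6 tested ligand genes was 0.32.

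Of 19 other receptors of the family, 14 could be tested, 6 higher and 8 lower, with a median log2 difference of -0.06. Over all tested genes 10990 of 18254 were lower. Of the 8, *Tnfrsf11b* was well above background on all 3 control arrays and on no knockout array, so the filter admitted it only through control. The knockout arrays lay all below the control arrays for 4 of the 14, where 21.6% of all genes did, and all above for 1, where 14.7% did. *Ngfr*, the low affinity receptor for nerve growth factor, was the 1 of the 14 past the 2-fold thresholds, lower in knockout samples, where 1.27% of all genes were. It read 2.87, 3.40 and 2.98 in control samples and 1.46, 2.07 and 2.28 in knockout samples, without overlap (log2 difference -1.15, standard error 0.25, limma adjusted p = 0.105), which is 2.21-fold lower. *Ngfr* also missed 2-fold without control 2 (log2 difference -0.99), without knockout 1 (-0.91), after quantile normalization (-0.97, or -0.91 with normexp) and with the deposited log2 values (-0.99). It passed the limma adjusted p with normexp and the 75th percentile (0.00074), with a trend and robust estimation (0.0291) and with array weights (0.036). Those settings passed 6444, 754 and 1493 of 18254 genes in that order. The decoy receptor gene *Tnfrsf22* had a log2 difference of 0.74 (limma adjusted p = 0.129), *Cd40*, the receptor for T cell help on B cells, one of -0.57 (limma adjusted p = 0.153) and *Relt* one of -0.54 (limma adjusted p = 0.140). None of these 3 passed either threshold as processed here. All 3 passed the limma adjusted p with normexp and the 75th percentile (0.026, 0.0152 and 0.0147), where 6444 of 18254 genes did. With normexp and quantile normalization their log2 differences were 0.23, -0.36 and -0.31 in that order.

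The adaptors and kinases downstream of the receptors were all detected. All 23 genes of that list were tested, 18 were lower and 5 higher in knockout samples, and none passed either threshold as processed here. Their median log2 difference was -0.17, against -0.12 for all tested genes, of which 10990 of 18254 were lower. *Ripk1*, the kinase recruited to TNFR1, differed by -0.50 (limma adjusted p = 0.132), *Traf3*, which restrains the alternative NF-kB pathway, by -0.49 (limma adjusted p = 0.153), *Traf4* by -0.49 (limma adjusted p = 0.183) and *Tradd*, the TNFR1 adaptor, by -0.42 (limma adjusted p = 0.139). The same 4 passed the limma adjusted p with normexp and the 75th percentile (0.0244, 0.0164, 0.0272 and 0.0152 in that order), where 6444 of 18254 genes did. *Ripk1* also passed it with array weights (0.0493), where 1493 genes did. The log2 difference of *Traf4* was -0.31 without knockout 2. After quantile normalization the 4 log2 differences were -0.39, -0.29, -0.36 and -0.23 in that order. With normexp and quantile normalization they were -0.34, -0.27, -0.31 and -0.24. These 4 were the adaptors with an unadjusted p under 0.05, of 23, where 13.6% of all genes were lower at that p. The knockout arrays lay all below the control arrays for 6 of the 23, these 4 included, where 21.6% of all genes did.

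Genes that NF-kB is known to induce were as often higher as lower. Of the 10 genes on that list, all tested, 5 were higher and 5 lower, with a median log2 difference of 0.07, and none passed either threshold. The adhesion molecule gene *Icam1* differed by -0.56 (limma adjusted p = 0.286) with overlapping groups, and by -0.28 without control 2. The IkB family genes *Nfkbid* and *Nfkbie* differed by 0.44 (limma adjusted p = 0.132) and 0.24 (limma adjusted p = 0.256), both without overlap, and *Bcl3* by 0.21 (limma adjusted p = 0.432), which was 0.35 without control 1 and 0.13 without control 3. With normexp and the 75th percentile *Nfkbid* differed by 0.15. After quantile normalization *Nfkbie* differed by 0.445 and *Bcl3* by 0.40.

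**Figure D5:**
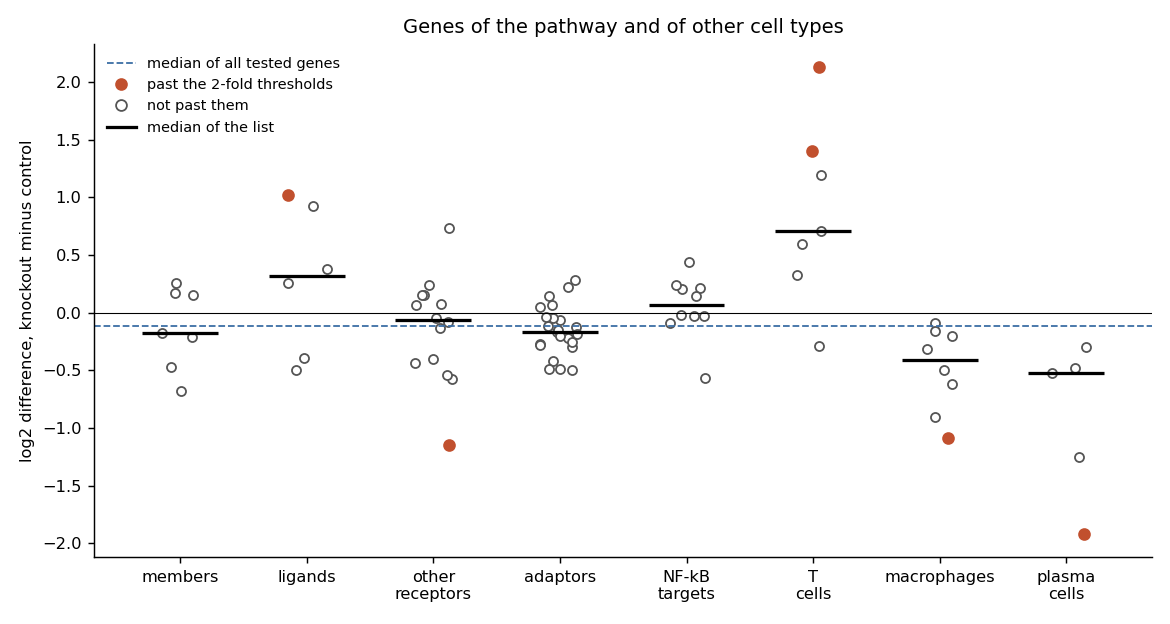
Log2 difference (knockout minus control, vertical axis) of each tested gene in the member list, 4 lists of the pathway and 3 lists of markers of other cells. Filled points passed the 2-fold thresholds, solid bars are the medians of the lists and the dashed line is the median of all tested genes. The ligand list holds Lta above the rest, and the macrophage and plasma cell lists lie below 0 throughout.

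The sorted cells carried B1a markers. *Cd5*, which marks B1a among B cells, read between 3.05 and 3.70 on the 6 arrays and was well above background on each of them. None of the 6 B cell and 5 B1a cell genes passed the 2-fold thresholds. *Itgam*, the gene of CD11b and the B1a gene with the highest log2 difference (0.79, limma adjusted p = 0.214, and 0.36 on the log2 scale without knockout 2), was read by 1 of the 35 probes with the reverse complement of the *Tnfrsf9* repeat, and the part of the repeat in its reading was not tested. In bulk RNA, fewer cells of a type and less RNA per cell cannot be told apart, and several receptors named here are also made by T cells and macrophages. The T cell list had 7 of 12 genes tested, 6 of them higher, where 7264 of 18254 tested genes were higher, and its summed linear level was 5.12 to 6.08 in control samples and 6.36 to 8.997 in knockout samples. Of the 6, *Lat* was well above background on all 3 knockout but only 2 control arrays, so the filter admitted it only through knockout. The sum also holds the genes that could not be tested, and probes at background read higher on knockout arrays. At the 2-fold thresholds 2 of the 7 rose, where 2.26% of all genes did, *Thy1* by 4.37-fold (log2 difference 2.13, without overlap, limma adjusted p = 0.135) and *Cd3d* by 2.65-fold (log2 difference 1.41, with overlap, limma adjusted p = 0.188). Both genes were dim in control samples. *Thy1* read -2.14, -3.29 and -3.75 on the control and -1.57, -1.73 and 0.51 on the knockout arrays. *Cd3d* read -2.10, -3.30 and -2.78 on the control and -2.54, -1.14 and -0.28 on the knockout arrays. Both passed the limma adjusted p with normexp and the 75th percentile (0.00222 for *Thy1* and 0.00725 for *Cd3d*), where 6444 of 18254 genes did. Without knockout 3 the log2 difference of *Thy1* was 1.41 and that of *Cd3d* was 0.89, and *Cd3d* missed the 2-fold thresholds there, without control 2, control 3 or knockout 2, with either quantile normalization, array weights, the replicate block or the deposited log2 values, and where dim probes were kept. *Thy1* missed them with normexp and quantile normalization (log2 difference 0.90). *Cd3e* differed by 0.60 (limma adjusted p = 0.127). *Cd3g*, the 1 tested T cell gene that was lower, differed by -0.28 (limma adjusted p = 0.400) and was well above background on all 6 arrays. *Trat1* was well above background on no array. *Foxp3*, which defines regulatory T cells, was well above background on 1 control array and no knockout array, and *Lrrc32* of the same list on no array. The 3 genes of that list summed to 0.277 to 0.291 in control samples and 0.372 to 0.439 in knockout samples. *Foxp3* and *Lrrc32* were near background, where probes read higher on knockout arrays, so the sum is no reading of the whole list. *Ikzf4* (log2 difference 0.62, limma adjusted p = 0.149) was the 1 gene of the list that could be tested. It passed the limma adjusted p with normexp and the 75th percentile (0.0244), where 6444 of 18254 genes did.

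Macrophage markers were lower for all 8 tested genes of 10 on the array, where 10990 of 18254 tested genes were lower. Of the 8, *Fcgr1* was well above background on all 3 control arrays but on 1 knockout array, so the filter admitted it only through control. The 2-fold thresholds were passed by 1 of the 8, where 1.27% of all genes passed in that direction. Summed levels were 31.4 to 67.9 on the control and 23.5 to 43.1 on the knockout arrays. *Csf1r*, a defining macrophage gene above background throughout, read 3.52, 2.87 and 2.69 on the control and 2.39, 3.35 and 2.43 on the knockout arrays. Its log2 difference of -0.31 ranged from -0.62 without knockout 2 to -0.06 without control 1, and was 0.24 where probes were averaged per gene. *Csf1r* passed the limma adjusted p with normexp and the 75th percentile (0.0496), where 6444 of 18254 genes did. All 5 plasma cell genes were lower, where 10990 of 18254 tested genes were. Of the 5, *Sdc1* was well above background on all 3 control arrays and on no knockout array, so the filter admitted it only through control. *Igj*, the gene of the immunoglobulin joining chain, was 1 of the 5 and fell at the 2-fold thresholds (log2 difference -1.92, 3.78-fold lower, without overlap, limma adjusted p = 0.135), where 1.27% of all genes did. *Igj* passed the limma adjusted p without knockout 3 (0.0424) and with normexp and the 75th percentile (0.0018), where 112 and 6444 of all genes passed. The levels of the 5 plasma cell genes had sums of 68.6 to 75.6 on the control and 46.6 to 59.5 on the knockout arrays. The part of these other cells in the readings of *Tnfrsf18*, *Tnfrsf1a*, *Ltbr* and *Lta* was not tested.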

How the data were processed

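Total RNA of sorted PC B1a cells was labelled with Cy3 and hybridized to 6 one-colour Agilent arrays, 3 for each genotype, all on 1 slide and read in 1 scan. Per the labels, intensity was read with Agilent Feature Extraction 10.7.1.1; the deposited intensity of a spot has its background subtracted but is not scaled to the other arrays. The authors also deposited 1 log2 value per probe and array; these columns have matching distributions, and no scaling is named in the sources used here. Coordinates are those of the array files (mm9), and gene order was taken from a RefSeq table.

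From the intensities, log2 of the processed signal was taken, the 75th percentile over the non-control spots of each array was subtracted, outlier spots were left out, and the mean was taken over the spots of each probe. A probe was above background on an array where most of its spots were marked so, and was tested where this held for all 3 arrays of at least 1 genotype. Each gene was represented by its brightest tested probe, which gave 18254 genes from 24753 probes. The comparison used limma 3.58.1 (lmFit, eBayes) under R 4.3.3, with Benjamini-Hochberg adjustment over all genes. The steps were tested on simulated data. No spot was saturated, and the number of arrays limits the precision, since an exact permutation test of 3 against 3 cannot go below 0.1.

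The members and gene lists were chosen with earlier results of these data known. Named genes are the members, the genes of 4 pathway lists past the 2-fold thresholds with the 4 largest differences of each list among genes above background on all 6 arrays, the deleted genes, the 5 genes most like Tnfrsf18, and defining markers. The repeat probes and the fuller account of *Ltb*, *Btla*, *Tnfsf14*, *Cd160*, *Trat1*, *Thy1*, *Cd3d*, *Cd3g*, *Lat*, *Igj*, *Sdc1*, *Fcgr1*, *Tnfrsf11b*, *Ikzf4*, *Lrrc32* and *Itgam* were added after their values were seen. Alternatives were other normalizations, background corrections, filters, probe summaries and tests, the deposited log2 values, a block for the replicate number, and leaving out each array. Not every gene that the rule covers is reported here.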

Additional observations from a re-analysis of the deposited data

How the results depend on the processing

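The signs of Tnfrsf18, Tnfrsf1a and Tnfrsf1b held in all 19 alternatives tried, and no member passed either threshold except in the settings named here. For Tnfrsf18 and Tnfrsf1a, whose groups did not overlap, leaving out 1 array could not change the sign. Several alternatives change only the filter or the test and keep the log2 differences as they were. With normexp and the 75th percentile, 1 member (Tnfrsf18) passed the adjusted p, and without a filter on dim probes 1 member (Cd27, above background on no array) passed the 2-fold thresholds. Over all genes, 7 passed the adjusted p, against 23 with quantile normalization, 6444 with normexp and the 75th percentile, 13 with normexp and quantile normalization, 22 with the deposited log2 values, 2 without a filter on dim probes, 26 with probes above background on all 6 arrays, 11 with probes averaged per gene, 754 with a trend and robust estimation, 1493 with array weights and 2 to 112 with 1 array left out. The 2-fold thresholds were passed by 644 genes, against 190 with normexp and the 75th percentile, 162 with normexp and quantile normalization, 10640 without a filter, and 602 to 1149 with 1 array left out, the highest counts, 112 and 1149, being those without knockout 3. Of these 2-fold genes 64% were higher, and the share was 46% with quantile normalization, 44.6% with the deposited values, 50.1% with array weights, 77.3% with scaling on the median of detected probes, 80.9% with normexp and quantile normalization, 82.3% with probes above background on all 6 arrays and 97.6% without a filter. The median of all genes moved by over 0.1 without a filter alone, from -0.12 to 0.40. Signs changed with normexp and the 75th percentile for Tnfrsf4 (-0.0018), Tnfrsf9 (-0.043), Ltbr (0.40), Tnfsf18 (0.076), Nfkbie (-0.068), Bcl3 (-0.081), Btla (-0.10) and Il12b (0.35, from -0.02). They also changed for Tnfrsf14 with quantile normalization (-0.025), deposited values (-1.77) and outlier spots kept (-1.65), for Il12b with the median of detected probes (0.073), for Csf1r with probes averaged per gene (0.24), and with 1 array left out for Ltbr (-0.80 to 0.15) and Il12b (-0.16 to 0.20). For Tnfrsf14 with outlier spots kept the change comes from 1 spot of control 1; for the others the cause was not tested. The genotypes share replicate numbers, but the correlations of same-numbered arrays were 0.19, 0.06 and 0.09, knockout 2 correlated better with control 3 (0.07) than with control 2, and the numbers were not taken to pair the samples; with the replicate number as a block 4 genes passed the adjusted p and none of the members did. Signal limits the readings of Cd27, Fas, Ltbr and probe 2 of Tnfrsf9, which were near background.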
